A study of Homo sapiens with 6 samples.

Results

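Complex I (NADH:ubiquinone oxidoreductase) was described here through its nuclear genes, taken as every gene of the deposited expression table whose symbol starts with NDUF. These were 47 of 16670 genes. They comprised 37 genes of subunits (NDUFA, NDUFB, NDUFC, NDUFS and NDUFV), 8 assembly factor genes (NDUFAF1 to NDUFAF8), and NDUFA4 and NDUFA4L2, which carry the name but whose products are assigned to, or related to, cytochrome c oxidase. The study used A549, a human non-small cell lung cancer line, made senescent with the Aurora A kinase inhibitor alisertib over 1 week. One group of 3 libraries came from such cells given salinomycin, a potassium ionophore, at 2.5 µM for 48 h, and the other group of 3 from such cells without salinomycin, called untreated below. Both groups had therefore received alisertib, and no library of cells without it was analysed here. The labels call the 3 libraries of a group biological replicates of 1 cell line, so the p-values measure the spread between these libraries.

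Complex I is the entry point of electrons from NADH into the respiratory chain and pumps protons across the inner mitochondrial membrane. A peripheral arm in the matrix binds NADH, passes electrons along a chain of iron-sulfur clusters and reduces ubiquinone, and a membrane arm carries the pumps. The core of the membrane arm is encoded by mitochondrial DNA, whereas the remaining subunits are made from nuclear genes, imported, and joined in modules with the help of assembly factors that are not part of the finished enzyme.

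The values are normalised units, that is, the authors' rescaled read counts after a further scaling (TMM) to a common level across libraries. Library totals in the deposited table lay between 16270249 and 16382904, and the reads recovered from the rescaled values between 13539959 and 19641149 per library. In all 13088 genes were tested with limma, and a gene is called changed (rose or fell with salinomycin) at a Benjamini-Hochberg adjusted p under 0.05. The epithelial markers EPCAM, CDH1, KRT8, KRT18 and KRT19 were all detected, with a summed level of 33820 to 37950 units with salinomycin and 152100 to 167700 units untreated; 4 of the 5 fell and KRT19 rose. Of 8 markers of blood, endothelial and fibroblast cells, 6 were in the table, summing to 412 to 451 units with salinomycin and 587 to 815 units untreated, most of it COL1A1. CD68, PECAM1 and CDH5 stayed below 15 units in every library. The part of these marker changes in the results below was not tested. In bulk RNA, fewer cells expressing a gene and less of its RNA per cell cannot be told apart.

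With salinomycin more genes of nuclear complex I subunits rose than fell, whereas more NDUFAF assembly factors fell than rose, a balance of the NDUFAF genes that turned over with scaling by library size alone. Of the 36 subunit genes tested, 18 rose, 10 fell and 8 did not pass; their median log2 change was 0.35, against 0.02 over all genes tested. The share of subunits that passed was close to the 81.9% of all genes. Of all genes 41.6% rose and 40.2% fell, and these shares stand behind each count below unless another setting is named. The 8 NDUFAF genes comprised 2 that rose, 4 that fell and 2 that did not pass, and their median was -0.20. The difference of the medians was 0.56 on the log2 scale, with an SD between libraries within a group of 0.0734. That SD leaves out the spread between genes, and the 8 NDUFAF genes ran from -0.86 to 1.23. The difference was not tested. The libraries did not overlap in 26 of the 36 subunit genes, against 83% of all genes. A total of 3 subunit genes rose by at least 2-fold and 1 fell by as much, against 16.8% and 18.5% of all genes. The log2 changes of the subunits ran from -1.19 to 1.57, so members of the same enzyme moved in opposite directions. With scaling by library size alone, which moved the all-gene median to 0.21, 23 subunits rose and 5 fell (median 0.54), and 3 NDUFAF genes rose and 2 fell (median -0.01). Under that scaling 49.4% of all genes rose and 33.3% fell, and these shares stand behind each count given for it below. The remaining subunit gene, NDUFA7, had 1.88 to 5.63 units with salinomycin and 2.13 to 4.27 units untreated, and was too low to be tested.

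**Figure D1:**
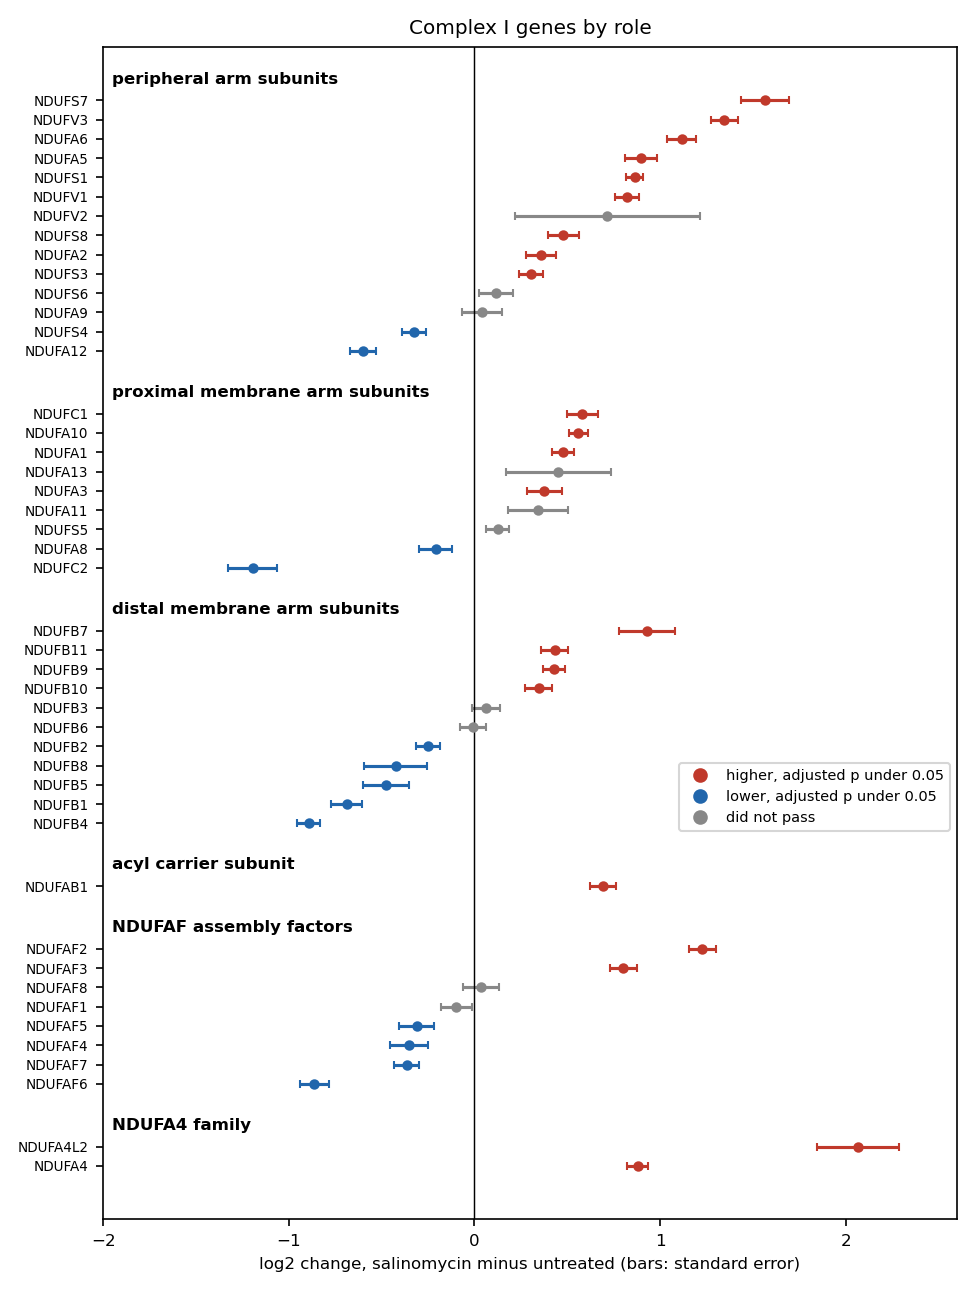
The log2 change (salinomycin minus untreated, horizontal axis) of the tested NDUF genes, 1 left out, is plotted by role, with bars for the standard error and colours for the limma call. The peripheral arm genes lie mostly right of 0, the distal membrane arm genes spread about it from -0.89 to 0.93, and the NDUFAF genes reach from -0.86 to 1.23.

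Summed over the 37 subunit genes, the level was 41680, 44120 and 45560 units in the salinomycin libraries, against 36400, 34850 and 32970 units in the untreated ones. As a share of all values in a library, the subunits made up 0.287% ± 0.0104 with salinomycin and 0.199% ± 0.00875 untreated (SD, n = 3 each). This share rests on library totals without TMM, the scaling under which the all-gene median log2 change was itself 0.21. The 8 NDUFAF genes together had 3383, 3552 and 3714 units with salinomycin and 3290, 3302 and 3050 units untreated. Both sums were higher in every salinomycin library than in any untreated one, so the NDUFAF sum and the NDUFAF median lay on opposite sides of no change. Per kilobase of the median coding transcript, the median level over the subunits was 1140.5 units with salinomycin and 1026.6 untreated.

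The peripheral arm genes had the most rises among the parts of the enzyme: of 15 tested, 9 rose, 3 fell and 3 did not pass (median log2 change 0.48). With scaling by library size alone 10 rose and 2 fell, and NDUFS4 no longer passed (log2 change -0.13; limma adjusted p = 0.0601). NDUFS7 encodes the core subunit that holds the last iron-sulfur cluster before ubiquinone and lies at chr19:1383527-1395589 on the plus strand (GRCh38). It had 399, 434 and 491 units with salinomycin, against 169, 120 and 159 units untreated. Every salinomycin library was above every untreated one, a log2 change of 1.57 (SE 0.129; limma adjusted p = 2.47e-07). Antisense transcripts of the annotation cover 49.1% of the exonic bases of NDUFS7, and the sources used here do not state whether reads were counted by strand. NDUFV3, an accessory subunit next to the NADH site (chr21:42879644-42913304, plus strand), had 1616, 1722 and 1621 units with salinomycin and 678, 697 and 579 units untreated. Its libraries did not overlap, and its log2 change was 1.35 (SE 0.0726; limma adjusted p = 5.32e-09). The third rise of at least 2-fold was in NDUFA6, which anchors the acyl carrier protein to the arm through its LYR motif, with 1369 ± 111 units with salinomycin and 631 ± 56.4 untreated (SD, n = 3 each).

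The other peripheral arm genes that rose were the core subunit genes NDUFV1, NDUFS1, NDUFS3 and NDUFS8 and the accessory genes NDUFA2 and NDUFA5, with log2 changes between 0.30 and 0.90. PTPMT1 on the same strand shares 19.6% of the exonic bases of NDUFS3. NDUFV1 carries the NADH site with its flavin, and NDUFS1 is the largest subunit and carries several clusters. NDUFS1 had 4532, 4725 and 4596 units with salinomycin, against 2543, 2539 and 2533 units untreated, the narrowest untreated spread of the peripheral arm genes that rose, at an SD of 4.71.

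The largest fall of the arm was in NDUFA12 (chr12:94897055-95003770, minus strand), an accessory subunit that joins late in assembly. Its level was 470, 456 and 514 units with salinomycin and 757, 736 and 689 units untreated. The libraries did not overlap, with a log2 change of -0.60 (SE 0.0701; limma adjusted p = 6.38e-06). NDUFS4, an accessory subunit often mutated in Leigh syndrome, fell by 0.33 on the log2 scale.

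Of the 3 peripheral arm genes that did not pass, NDUFS6, a zinc-binding accessory subunit, had 655, 815 and 833 units with salinomycin and 772, 677 and 668 units untreated. NDUFA9, an accessory subunit with a nucleotide-binding fold, had 188, 210 and 203 units with salinomycin and 170, 205 and 210 units untreated. Both overlapped between the groups. NDUFS6 passed without salinomycin replicate 1 (log2 change 0.23; limma adjusted p = 0.0195) and with scaling by library size alone (0.31; limma adjusted p = 0.00702). NDUFV2, a core subunit beside NDUFV1, had only 13.9, 11.3 and 5.63 units with salinomycin and 2.16, 6.38 and 10.7 units untreated. That is 11.0 units per kilobase with salinomycin and 6.9 untreated, against subunit medians of over 1000 on the same scale. NDUFA7, also of this arm, stood at 6.7 units per kilobase with salinomycin and 4.7 untreated. A gene annotated on the same strand shares 28.4% of the exonic bases of NDUFV2 and 32.3% of those of NDUFA7, and the part of this overlap in their low levels was not tested.

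In the proximal membrane arm, the part nearer the peripheral arm, 4 of 9 genes rose, 2 fell and 3 did not pass (median log2 change 0.38). Under library-size scaling the split was 6 higher and 1 lower. NDUFC1, a small accessory subunit, had 393, 428 and 412 units with salinomycin, against 302, 262 and 262 units untreated. MGARP on the same strand shares 18.5% of the exonic bases of NDUFC1, so the split of reads between them is uncertain. NDUFA10, which resembles nucleoside kinases, had 3346, 3397 and 3400 units with salinomycin, against 2284, 2428 and 2174 units untreated. Neither gene overlapped between the groups, with log2 changes of 0.58 for NDUFC1 (SE 0.0834; limma adjusted p = 3.97e-05) and 0.56 for NDUFA10 (SE 0.0518; limma adjusted p = 7.57e-07). NDUFA1 and NDUFA3 rose by 0.48 and 0.38, and 44.5% of the exonic bases of NDUFA1 are covered on the other strand by RNF113A, which rose too.

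NDUFC2 had the largest fall of all nuclear subunit genes. This accessory membrane subunit (chr11:78068304-78080219, minus strand) had 119, 86.3 and 85.4 units with salinomycin, against 231, 216 and 213 units untreated. The lowest untreated library was far above the highest salinomycin one, and the log2 change was -1.19 (SE 0.134; limma adjusted p = 4.38e-06). Its exons share 16.3% of their bases with the readthrough gene NDUFC2-KCTD14 on the same strand, so the split of reads between them is uncertain. NDUFA8, a subunit facing the intermembrane space, had 723, 799 and 894 units with salinomycin and 972, 991 and 826 units untreated. Its libraries overlapped, and its log2 change of -0.21 passed only narrowly (SE 0.0891; limma adjusted p = 0.0479). NDUFA8 did not pass without salinomycin replicate 1 or 2 or untreated replicate 1 or 2, each left out alone (limma adjusted p between 0.103 and 0.196). Scaled by library size alone, its log2 change was -0.02 (limma adjusted p = 0.864).

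The proximal arm genes that did not pass were NDUFA11, NDUFA13 and NDUFS5. NDUFS5, an intermembrane space subunit, had 2438, 2646 and 2707 units with salinomycin and 2403, 2527 and 2207 units untreated. NDUFA11, a membrane subunit, had 133, 111 and 124 units with salinomycin and 114, 106 and 73.6 units untreated. NDUFA13, also known as GRIM-19, had 19.4, 16.9 and 32.9 units with salinomycin and 15.1, 19.2 and 13.9 units untreated. All 3 overlapped between the groups, with log2 changes of 0.13, 0.34 and 0.45 in that order. NDUFS5 passed without salinomycin replicate 1 (0.17; limma adjusted p = 0.0319) or untreated replicate 2 (0.17; limma adjusted p = 0.0277), and NDUFA11 without untreated replicate 1 or 2 (0.46 and 0.42; limma adjusted p = 0.0261 and 0.0494). Both also passed with scaling by library size alone. At 27.9 units per kilobase with salinomycin and 19.5 untreated, NDUFA13 was among the lowest subunits by length, and genes annotated on the same strand share 21.0% of its exonic bases.

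In the distal membrane arm, at the far end of the enzyme and represented here by the NDUFB genes, 4 of 11 genes rose, 5 fell and 2 did not pass (median log2 change -0.01). That was 36.4% higher and 45.5% lower, near the 41.6% and 40.2% of all genes. Under library-size scaling 6 were higher and 2 lower, and NDUFB2, NDUFB5 and NDUFB8 no longer passed. NDUFB7, a subunit on the intermembrane space side, had 521, 630 and 736 units with salinomycin, against 405, 262 and 327 units untreated. NDUFB11, a single-pass membrane subunit encoded on chromosome X, had 1547, 1549 and 1758 units with salinomycin, against 1286, 1220 and 1091 units untreated. Both were higher in every salinomycin library, with log2 changes of 0.93 for NDUFB7 (SE 0.151; limma adjusted p = 0.000111) and 0.43 for NDUFB11 (SE 0.073; limma adjusted p = 0.000151). On the other strand RBM10, which rose too, covers 44.9% of the exonic bases of NDUFB11. The other 2 NDUFB genes that rose were NDUFB9, another LYR protein that holds a copy of the acyl carrier protein, and NDUFB10, by 0.43 and 0.35.

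NDUFB4 fell most in this arm. This membrane accessory subunit (chr3:120596309-120602500, plus strand) had 785, 810 and 870 units with salinomycin, against 1588, 1450 and 1541 units untreated. The salinomycin libraries all lay near 820 units and the untreated ones near 1530, a log2 change of -0.89 (SE 0.0605; limma adjusted p = 4.23e-08). NDUFB1, a small membrane subunit, had 425, 448 and 491 units with salinomycin and 734, 806 and 662 units untreated. It did not overlap between the groups either, at a log2 change of -0.69 (SE 0.0844; limma adjusted p = 9.91e-06). NDUFB2 and NDUFB5 fell by 0.25 and 0.48, and NDUFB8 fell by 0.42 with libraries that overlapped. NDUFB8 did not pass without salinomycin replicate 1 or 3 or untreated replicate 1 or 2, each left out alone (limma adjusted p between 0.0701 and 0.13). A gene annotated on the same strand shares 33.8% of its exonic bases.

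NDUFB3 and NDUFB6, also membrane subunits, did not pass. NDUFB3 had 762, 847 and 886 units with salinomycin and 845, 809 and 735 units untreated, and NDUFB6 had 490, 534 and 519 units with salinomycin and 549, 503 and 500 units untreated. Their log2 changes were 0.06 (SE 0.0745) and -0.01 (SE 0.0695). Scaled by library size alone, both passed as higher, NDUFB6 at 0.18 (limma adjusted p = 0.0249), with its sign turned, and NDUFB3 at 0.25 (limma adjusted p = 0.00601). FAM126B, which rose, covers 19.8% of the exonic bases of NDUFB3 on the other strand. NDUFAB1, the mitochondrial acyl carrier protein that sits in both arms and also serves mitochondrial fatty acid synthesis, had 1122, 1246 and 1303 units with salinomycin, against 800, 759 and 707 units untreated. It rose in every salinomycin library over every untreated one (log2 change 0.69, SE 0.0706; limma adjusted p = 1.79e-06).

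**Figure D2:**
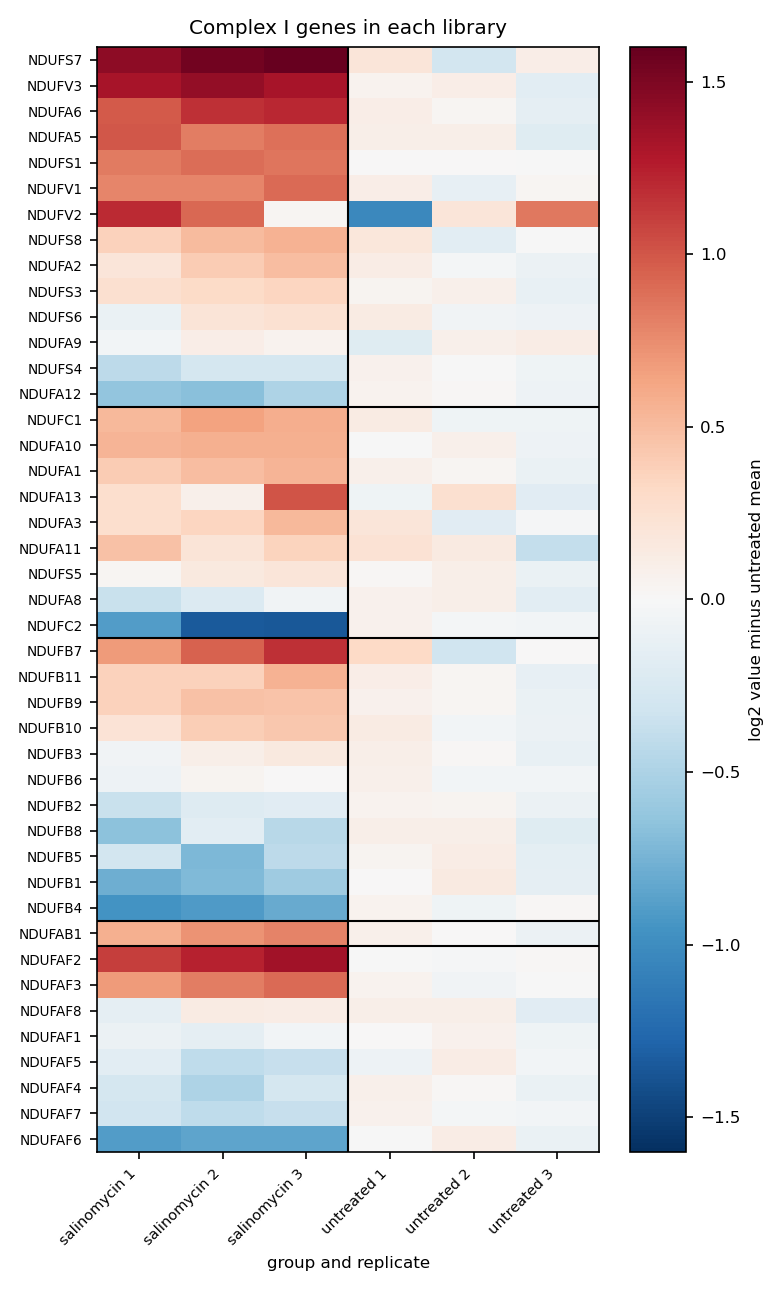
Each row is a tested subunit or NDUFAF gene, 1 left out, and each column a library; colour gives the log2 value minus the mean of the untreated libraries, and lines separate the peripheral, proximal and distal arms, NDUFAB1 and the NDUFAF genes. The 3 salinomycin columns share their colour in most rows, with NDUFV2 and NDUFA13, the lowest genes shown, the most uneven.

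Among the NDUFAF assembly factors, NDUFAF2 moved most. NDUFAF2 is a paralogue of the subunit NDUFA12 that sits on late assembly intermediates before NDUFA12 takes its place. It had 714, 781 and 840 units with salinomycin, against 329, 328 and 336 units untreated. The lowest salinomycin library was above 700 units and the highest untreated one below 340, a log2 change of 1.23 (SE 0.0735; limma adjusted p = 1.36e-08). NDUFAF2 rose while NDUFA12 fell. Per kilobase, NDUFAF2 stood at 1192.8 units with salinomycin and 507.0 untreated, and NDUFA12 at 985.9 units with salinomycin and 1493.7 untreated. NDUFAF3, which works with NDUFAF4 on the module that reduces ubiquinone, had 730, 809 and 861 units with salinomycin, against 476, 440 and 456 untreated. Its libraries did not overlap (log2 change 0.80, SE 0.0734; limma adjusted p = 6.69e-07), whereas its partner NDUFAF4 fell by 0.35. On the other strand DALRD3 covers 21.7% of the exonic bases of NDUFAF3.

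NDUFAF6, related to squalene synthases and needed for the membrane-bound ND1 subunit, had 270, 280 and 281 units with salinomycin, against 503, 546 and 467 untreated. All salinomycin libraries were lower, with a log2 change of -0.86 (SE 0.0784; limma adjusted p = 6.45e-07). NDUFAF7, a mitochondrial methyltransferase, had 426, 397 and 407 units with salinomycin, against 556, 518 and 511 untreated. The fall of NDUFAF7 was without overlap too (log2 change -0.36, SE 0.0689; limma adjusted p = 0.000372). NDUFAF5, which hydroxylates NDUFS7, fell by 0.31, in the opposite direction to NDUFS7. With scaling by library size alone NDUFAF4 and NDUFAF5 did not pass (log2 changes -0.16 and -0.12; limma adjusted p = 0.164 and 0.274).

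NDUFAF1 and NDUFAF8 did not pass. NDUFAF1, a member of the MCIA complex that assembles part of the membrane arm, had 251, 243 and 261 units with salinomycin and 269, 282 and 256 units untreated. NDUFAF8, the partner of NDUFAF5, had 539, 656 and 649 units with salinomycin and 638, 634 and 525 units untreated. Both overlapped between the groups, with log2 changes of -0.10 for NDUFAF1 and 0.04 for NDUFAF8. Scaled by library size alone, NDUFAF8 passed at 0.23 (limma adjusted p = 0.04).

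Among assembly factors with other names more rose than fell. Of 11 such genes 6 rose, 2 fell and 3 did not pass (median log2 change 0.21); with scaling by library size alone 8 rose and 1 fell. FOXRED1, a flavin-dependent protein of late assembly, had the largest rise, with 1482, 1539 and 1417 units with salinomycin and 293, 309 and 276 untreated. That was 5.04-fold on the fitted scale, without overlap (log2 change 2.33, SE 0.0659; limma adjusted p = 2.6e-11). ACAD9 and ECSIT, partners of NDUFAF1 in the MCIA complex, rose by 2.31-fold and 2.38-fold. The largest fall was in COA1, first known from the assembly of cytochrome c oxidase, with 916, 944 and 897 units with salinomycin and 1206, 1182 and 1164 untreated (log2 change -0.37, SE 0.0526; limma adjusted p = 4e-05). TMEM126B, also of the MCIA complex, fell by 0.32, so members of 1 assembly complex moved in both directions.

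**Figure D3:**
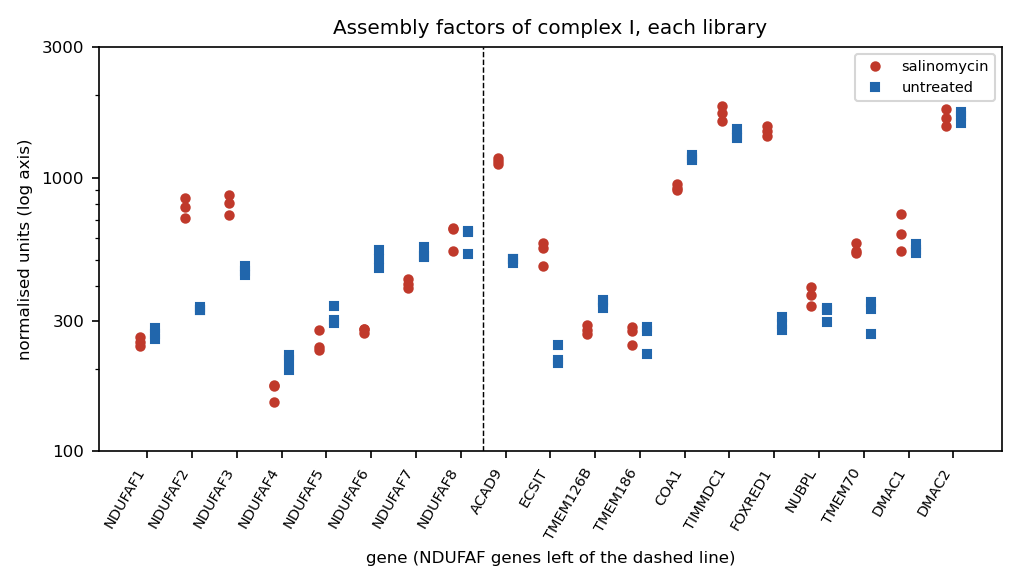
Normalised units (log axis) of the 8 NDUFAF genes and the 11 other assembly factor genes, with 1 point per library, salinomycin as circles on the left of each gene and untreated as squares on the right. The libraries do not overlap and are higher with salinomycin for NDUFAF2, NDUFAF3, ACAD9, ECSIT, TIMMDC1, FOXRED1, NUBPL and TMEM70, and lower for NDUFAF4, NDUFAF5, NDUFAF6, NDUFAF7, TMEM126B and COA1.

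The mitochondrially encoded subunits of the same enzyme all fell, 7 of 7, with a median log2 change of -3.29. MT-ND3 fell most, with 463, 379 and 442 units with salinomycin and 8072, 7078 and 6784 units untreated. The untreated libraries were all far above the salinomycin ones, a log2 change of -4.09 (SE 0.0825; limma adjusted p = 2.17e-12). Together the 7 genes made up 0.193% ± 0.0201 of all values with salinomycin and 1.34% ± 0.0517 untreated (SD, n = 3 each). In the salinomycin libraries the nuclear subunits therefore held a larger share of the values than the mitochondrial ones, and in the untreated libraries a smaller one. Leaving the mitochondrially encoded genes out before scaling, an alternative added after seeing the data, kept the subunit counts at 18 higher and 10 lower.

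**Figure D4:**
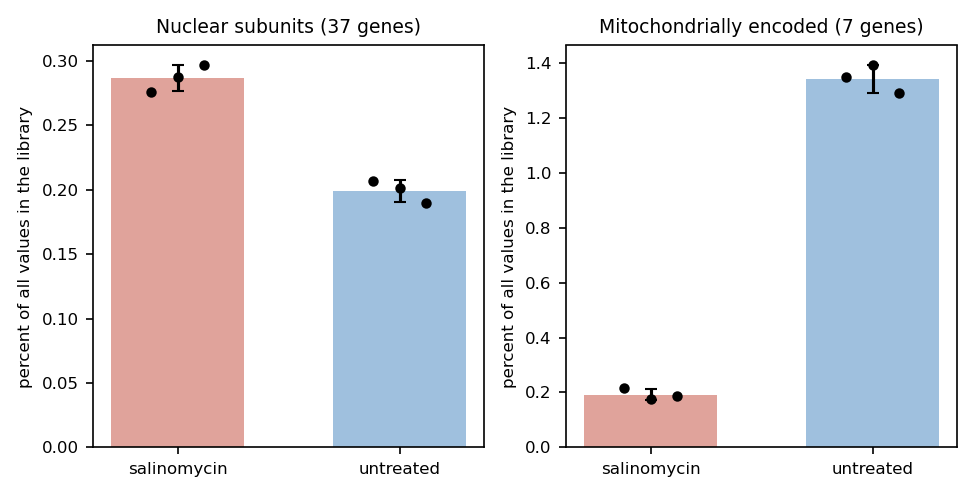
Share of all values in a library (percent, vertical axes from 0) held by the 37 nuclear subunit genes and by the 7 mitochondrially encoded subunit genes; bars are means with SD and points are the 3 libraries of each group. The nuclear share was 0.287% with salinomycin and 0.199% untreated, and the mitochondrial share 0.193% with salinomycin and 1.34% untreated. Shares rest on library totals without TMM scaling.

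The nuclear genes of the other respiratory complexes were mixed as well. In complex II 3 of 4 genes rose and 1 fell (median log2 change 0.43), in complex III 6 of 9 rose and 1 fell (0.40), in complex IV 2 of 10 rose and 5 fell (-0.12), and in complex V 5 of 15 rose and 8 fell (-0.35). With scaling by library size alone complex II had 3 higher and none lower, complex IV turned to 5 higher and 4 lower, and complex V stayed with more lower than higher. The largest rise and fall were SDHB (0.73) and SDHC (-0.25) in complex II, UQCRQ (0.71) and UQCRB (-0.52) in complex III, COX8A (0.66) and COX7C (-0.83) in complex IV, and ATP5MC1 (1.33) and ATP5F1C (-0.96) in complex V, all log2 changes past the test. Whether complex I differs from any of these as a set was not tested. Of 76 tested mitochondrial ribosomal protein genes 39 rose, 19 fell and 18 did not pass (median 0.18). NDUFA4, now counted with cytochrome c oxidase, had 5184, 5521 and 5692 units with salinomycin, against 3069, 3096 and 2755 untreated, without overlap (log2 change 0.88, SE 0.0586; limma adjusted p = 3.65e-08). Its hypoxia-induced relative NDUFA4L2 was low, with 63.0, 57.2 and 52.6 units with salinomycin and 10.8, 11.7 and 17.1 untreated. NDUFA4L2 had the highest log2 change of all NDUF genes, 2.07 (SE 0.221; limma adjusted p = 2.79e-06).

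Listed regulators of respiratory genes moved in both directions. Of 11 listed, 4 rose and 5 fell, or 5 and 3 when scaled by library size alone. The first split was 36.4% higher and 45.5% lower, near the 41.6% and 40.2% of all genes. The list includes TFB2M, POLRMT and TFAM, which serve mitochondrial DNA rather than nuclear genes, with log2 changes of 1.18, 1.18 and -0.64. The largest rise was in PPRC1, a coactivator of the PGC-1 family, with 2793 ± 47.9 units with salinomycin and 1206 ± 96.7 untreated (SD, n = 3 each). The largest fall was in its relative PPARGC1A, with 2.49 ± 1.05 units with salinomycin and 16.8 ± 2.99 untreated (SD, n = 3 each). PPARGC1A met the filter of at least 10 in 3 libraries only through the untreated group. Its recovered reads were 5, 2 and 2 with salinomycin and 14, 18 and 12 untreated, so the size of its fall is uncertain. NRF1 and GABPA, transcription factors that bind promoters of respiratory genes, did not pass (log2 changes 0.05 and -0.07). GABPB1, the partner of GABPA, and YY1, another such factor, fell by 0.36 and 0.29 on the log2 scale (limma adjusted p = 0.00164 and 0.000489).

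Promoter letters of the members were read from RefSeq (GRCh38.p14), as windows of 250 bases before to 50 bases after a start, with 51 windows for 39 member genes. The motif of NRF1 (GCGCA, any base, then GCGC, sought like the others on both strands) occurred in 5.78% of all 35116 windows, in 7.39% of the windows of coding genes and in 13.7% of the member windows, of 7 member genes. These were NDUFA8, NDUFA12, NDUFAF5 and NDUFB4, 4 of the 10 genes with a window that fell, NDUFA3, 1 of the 19 that rose, and NDUFA9 and NDUFA11, which did not pass. The motif of GABPA (CCGGAAG) occurred in 10.26% of all windows and 12.84% of coding ones, that of YY1 (AAGATGGCG) in 1.75% and 2.41%, and that of SP1 (GGGGCGGGG) in 15.68% and 20.61%. Each of these 3 was in 15.7% of the member windows, of 7 member genes, which for SP1 is below the share of coding windows. GABPA letters stood in windows of 4 genes that rose and 1 that fell, YY1 letters in those of 2 and 2, and SP1 letters in those of 4 and 1. Stretches upstream of 4 of the genes with large changes are shown on the strand of the gene, without exons, with the NRF1 letters of NDUFB4 and NDUFA12 and the GABPA letters of NDUFB7 in capitals. NDUFB4 spans chr3:120596086-120596308 (plus), NDUFA12 chr12:95003771-95003947 (minus), NDUFB7 chr19:14572067-14572316 (minus), and NDUFAF2 chr5:60945074-60945128 (plus), which is the gap between its first exon and that of ERCC8 and holds none of the 4 motifs. A match describes these letters only.
NDUFB4: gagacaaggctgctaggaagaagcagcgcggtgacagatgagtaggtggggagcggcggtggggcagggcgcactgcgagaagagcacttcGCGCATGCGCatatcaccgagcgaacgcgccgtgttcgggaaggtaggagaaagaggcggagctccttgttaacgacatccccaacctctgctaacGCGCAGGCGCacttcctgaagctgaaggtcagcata
NDUFA12: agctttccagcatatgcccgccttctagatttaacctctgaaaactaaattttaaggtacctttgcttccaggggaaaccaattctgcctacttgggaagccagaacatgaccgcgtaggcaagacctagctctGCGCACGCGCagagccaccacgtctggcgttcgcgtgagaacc
NDUFB7: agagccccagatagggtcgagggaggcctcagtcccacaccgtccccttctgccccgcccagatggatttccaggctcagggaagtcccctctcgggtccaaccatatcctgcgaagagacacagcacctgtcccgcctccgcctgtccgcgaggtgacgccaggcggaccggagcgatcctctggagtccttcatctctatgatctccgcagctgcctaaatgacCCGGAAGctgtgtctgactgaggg
NDUFAF2: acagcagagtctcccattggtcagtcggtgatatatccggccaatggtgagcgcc
The 3 genes with capitals above cover both directions: NDUFB4 and NDUFA12 fell, and NDUFB7 rose.

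Many members have a start close to that of a gene transcribed the other way. Within 1000 bases on either side, 23 members had such a coding neighbour, in 24 pairs. These pairs are called divergent here even where the genes overlap at their starts. In 8 pairs both genes passed the test, and 7 of the 8 moved in the same direction. Among all divergent coding pairs in which both genes passed, overlapping ones included, 428 of 636 (67.3%) did so. Of the 8 pairs, only NDUFAF2 with ERCC8 and NDUFV3 with WDR4 have starts that face away from each other without overlap of the genes. NDUFAF2 and ERCC8, a DNA repair gene whose start lies 56 bases away, had log2 changes of 1.23 and 1.20, and ERCC8 stood at 746 ± 22.8 units with salinomycin and 325 ± 25.7 untreated (SD, n = 3 each). NDUFV3 and WDR4 changed by 1.35 and 0.84, and NDUFS1 and the translation factor gene EEF1B2 by 0.86 and 0.64. NDUFB9 rose while TATDN1 fell, the 1 pair in opposite directions. Exons of NDUFA1, NDUFA2, NDUFB8, NDUFB9, NDUFB11 and NDUFS1 overlap those of these neighbours on the other strand, and without strand such reads cannot be told apart. Pseudogenes are named for 19 members, with 12 each for NDUFA5 and NDUFB4 and 6 for NDUFS5, and the sources used here do not state how reads shared with them were counted.

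**Figure D5:**
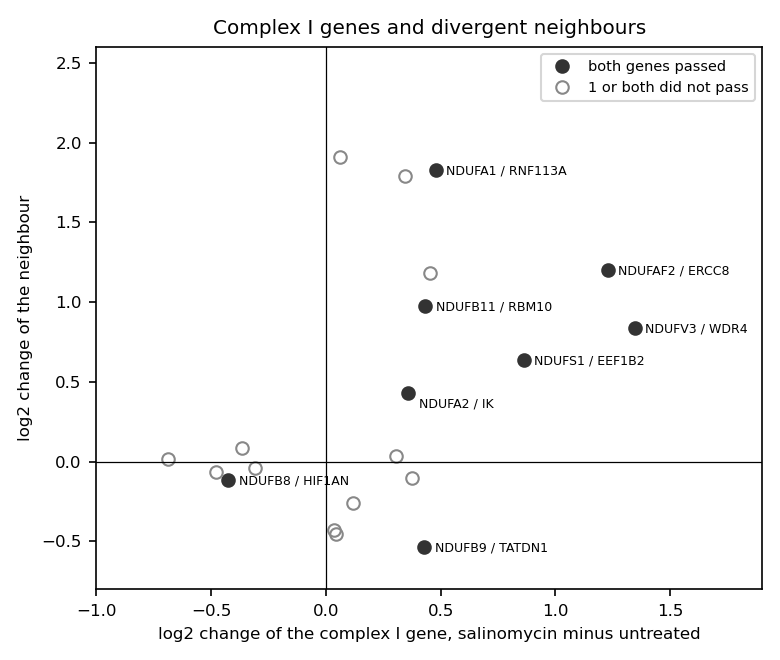
The log2 change of a complex I gene (horizontal) is plotted against that of its divergent coding neighbour (vertical), both salinomycin minus untreated; filled points are pairs in which both genes passed. Of these 8 pairs, 6 lie in the upper right, NDUFB8 with HIF1AN is lower in both, and NDUFB9 with TATDN1 is split.

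The authors' deposited table gave a log2 fold change above 0 for 27 of the 37 subunit genes and for 4 of the 8 NDUFAF genes, against 9624 of all 16670 genes. After subtraction of the value fitted by the authors, the authors' deposited table left 25 subunit genes and 2 NDUFAF genes above 0, against 8546 of all genes. At an adjusted p under 0.05 in the authors' deposited table, 22 subunit genes were higher and 5 lower, and 3 NDUFAF genes were higher and 1 lower. Of the 15107 genes with an adjusted p in the authors' deposited table, 41.9% were higher and 28.1% lower. The subunit medians in the authors' deposited table were 0.54 before and 0.285 after that subtraction, against all-gene medians of 0.17 and 0.02. In the authors' deposited table of gene sets, the gene ontology set for the NADH dehydrogenase complex had a normalised enrichment score of -1.63 (adjusted p = 0.0417) and that for NADH dehydrogenase activity -1.90 (adjusted p = 0.00662). Sets closer to assembly did not pass in the authors' deposited table of gene sets: Reactome complex I biogenesis had -1.41 (adjusted p = 0.14), the WikiPathways model of complex I assembly -1.35 (adjusted p = 0.182) and NADH dehydrogenase complex assembly -1.14 (adjusted p = 0.437). The authors' deposited table of gene sets gave the hallmark oxidative phosphorylation set 1.56 (adjusted p = 0.00674) and the KEGG oxidative phosphorylation set -1.71 (adjusted p = 0.00274). In the authors' deposited table of gene sets, the gene ontology set for oxidative phosphorylation had -1.78 (adjusted p = 0.000387). The gene ontology set for electron transport from NADH to ubiquinone had -1.67 in the authors' deposited table of gene sets (adjusted p = 0.0306). Which genes each set holds is not given in the sources used here, so whether the mitochondrially encoded subunits are counted in them was not tested.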

How the data were processed

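RNA of 3 libraries of salinomycin-treated and 3 of untreated, alisertib-senescent A549 cells was sequenced and summarised per gene. The genome build is GRCh38, per the submitters' processing notes. The aligner, counter, annotation, strand setting and kit are not given in the sources used here; each of the 6 library columns holds a signal made by the authors. The deposited values are whole numbers of at least 1 and behave as read counts rescaled to a common depth with 1 added, from the values themselves. The tool behind the rescaling is not given, so no count model was used. The authors also deposited log10 mean levels (not printed here) and columns of log2 fold changes, with a log2 value they fitted, linear fold changes and p-values, and a gene set table with enrichment scores and p-values; these are printed only as the authors' values.

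From the deposited signal, 1 was subtracted, libraries were scaled by the trimmed mean of M-values (TMM, trimming 0.3 of log ratios and 0.05 of levels), genes with at least 10 in 3 or more libraries were kept, and log2(value + 1) was tested with limma 3.58.1 in R 4.3.3 with a mean-variance trend over all 13088 genes (Benjamini-Hochberg, adjusted p under 0.05). Fold changes on this scale understate those of low genes. Reads recovered from the steps between low values were used for limma-voom as an alternative. The fit was tested on simulated data. Values in every library are given, by rule, for the 2 largest rises and falls past the test in each role list, for NDUFAB1, NDUFA4 and NDUFA4L2, and for every tested NDUF gene that did not pass; NDUFS1 was added after its values were seen, and 1 gene, kept in the counts, is not reported here by name. In lists of other genes the largest rise and fall are named. ACAD9, ECSIT, TMEM126B, TFB2M, POLRMT, TFAM and 4 regulators were named beside them for their role after their values were seen. The members and lists were chosen with earlier results of these data known. Positions, overlaps and neighbours came from GENCODE 29, in which all 47 members were placed. Alternatives were other scalings, filters and pseudocounts, blocking on the replicate number, and omission of each library in turn.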

Additional observations from a re-analysis of the deposited data

How the results depend on the processing

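Across the 46 tested members, 733 values were recomputed under the alternatives, of which 693 kept direction and call, 19 lost the call, 10 gained one and 11 changed sign. Scaling by library size alone moved most: subunits that fell numbered 5, NDUFAF genes that fell 2 and other assembly factors that fell 1, and the sign turned for NDUFB6 (0.18) and NDUFAF1 (0.094). Upper-quartile scaling turned the sign of NDUFA9 (-0.044), NDUFAF8 (-0.049) and NDUFB3 (-0.024). Leaving out 1 library turned the sign of NDUFB6 (range -0.043 to 0.035), NDUFAF8 (-0.055 to 0.13) and NDUFA9 (-0.054 to 0.099), none of which passed in any of those fits. The difference between subunit and NDUFAF medians ranged from 0.50 to 0.66 over the left-out libraries, highest without salinomycin replicate 1; the cause was not tested. With the replicate number as a block, 18 subunits rose and 9 fell, NDUFA8 no longer passing, and 5 other assembly factors rose; the NDUFAF counts were as without it. NDUFA8 was also lost with limma-voom and, with NDUFB8, without the filter on low values. Same-numbered libraries did not deviate together (correlations of -0.172, -0.0131 and -0.0326), and differently numbered ones had correlations from -0.154 to 0.194. No shared effect of the number was seen, but whether same-numbered samples were handled together cannot be told from these values. Low depth limits NDUFV2, NDUFA7 and NDUFA13, whose levels rest on few reads, and 3 libraries a group limit the small changes, such as those of NDUFA8 and NDUFB8.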
